A study of Homo sapiens with 12 samples.

Results

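The p53 target genes described here were 10 genes that the transcription factor p53 is known to switch on: CDKN1A, MDM2, RRM2B, ZMAT3, PHLDA3, SESN1, BBC3, FAS, BAX and TP53I3. They were found by symbol in a table of 10945 genes measured in HepG2 cells, a human hepatocellular carcinoma line, and all 10 had a row in it. The set was chosen by gene symbol with the counts of these libraries, above all those of the Plasmax medium, already in view. Values of the members in comparisons with Plasmax are therefore given as a description and carry no p-value.

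HepG2 cells labelled wild type were seeded in EMEM, moved after 24 h to 1 of 4 media, given fresh medium at 48 h and harvested at 96 h. The media were EMEM itself, DMEM with low glucose (LGDMEM) or with high glucose (HGDMEM), and Plasmax, a medium formulated after the nutrient composition of human plasma, each with 10% heat-inactivated bovine serum. Each medium had 3 libraries of 3′ mRNA tags, which count transcripts near their 3′ ends. Whether those 3 came from separate cultures is not stated, and errors and p-values cover the variation among libraries only, some of it possibly technical.

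p53 accumulates when cells meet DNA damage, nucleotide shortage or other stress, binds response elements near its targets and raises their transcription. Its targets include CDKN1A, whose product p21 stops the cell cycle and lets the DREAM complex silence replication and mitosis genes, and MDM2, the ubiquitin ligase that removes p53 in a feedback loop.

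The p53 response element is a pair of 10-base arms, the sequence that p53 recognises in DNA. RefSeq promoters (GRCh38.p14, 250 bases before to 50 after each annotated start) were searched on both strands for 20-base matches without a spacer, with up to 3 mismatches to the p53 response element and the core C and G of both arms kept. Of the 10 members, 8 matched an entry, and 3 of these 8 genes (37.5%) held a match, against 373 of all 27305 genes (1.37%). Genes differed in the number of windows searched. By window, 4 of 16 (25%) held a match in the members, against 392 of 35116 (1.12%) in all. MDM2 had 4 windows and FAS and SESN1 had 3 each, while ZMAT3 had 2 and CDKN1A, BBC3, BAX and TP53I3 had 1 each. The matches are shown because they carry the letters of that element, with the 20-base match in capitals and 5 flanking bases on each side.
MDM2: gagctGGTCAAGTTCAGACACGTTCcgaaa
FAS: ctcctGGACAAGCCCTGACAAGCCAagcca
SESN1: cgtctGGACAAGTCTCCACAAGTCAgaaat

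The MDM2 stretch lies at chr12:68808918-68808947 on the plus strand, its match ending 74 bases before an annotated start, inside the MDM2 gene and outside annotated exons. The FAS stretch lies at chr10:88991304-88991333 on the plus strand, 102 bases before a start, where an annotated FAS exon and an ACTA2 exon on the opposite strand overlap it. The SESN1 stretch lies at chr6:109009013-109009042 on the minus strand, 29 bases before a start, inside the gene and outside exons. The MDM2 and FAS matches had 2 mismatches and the SESN1 match had 3. CDKN1A, ZMAT3, BBC3, BAX and TP53I3 held no such match in these windows, which says only that these letters are not there. Tags near the 3′ end do not tell which start a transcript came from.

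Against EMEM, 6 of the 10 members were called higher in Plasmax and 0 lower, at an adjusted p under 0.05 in edgeR's quasi-likelihood fit, where 10% of all genes were called higher and 12.1% lower. Against LGDMEM the count was 6 higher and 0 lower, beside 9.48% and 11.7% of all genes, and against HGDMEM 5 higher and 0 lower, beside 12.8% and 14.1%. The rule used these contrasts, and nothing is read from the counts. In 6 members all 3 Plasmax libraries lay above all 9 others, a pattern seen in 10.9% of all genes. Those members were CDKN1A, MDM2, RRM2B, ZMAT3, BBC3 and TP53I3, while PHLDA3, SESN1, FAS and BAX overlapped. The median log2 fold change of the 10 members in Plasmax was 0.61 against EMEM, 0.78 against LGDMEM and 0.72 against HGDMEM, where the medians of all genes were 0.02, 0.00 and 0.01. The 3 comparisons share the Plasmax libraries and are not independent of each other.

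Levels are given as CPM, counts scaled to a common library size. In single libraries, the median member stood 0.50 to 0.76 above its EMEM mean on the log2 scale in the 3 Plasmax libraries and between -0.10 and 0.19 in the 9 others. In these bulk libraries, fewer cells of a type and less RNA per cell cannot be told apart.

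**Figure D1:**
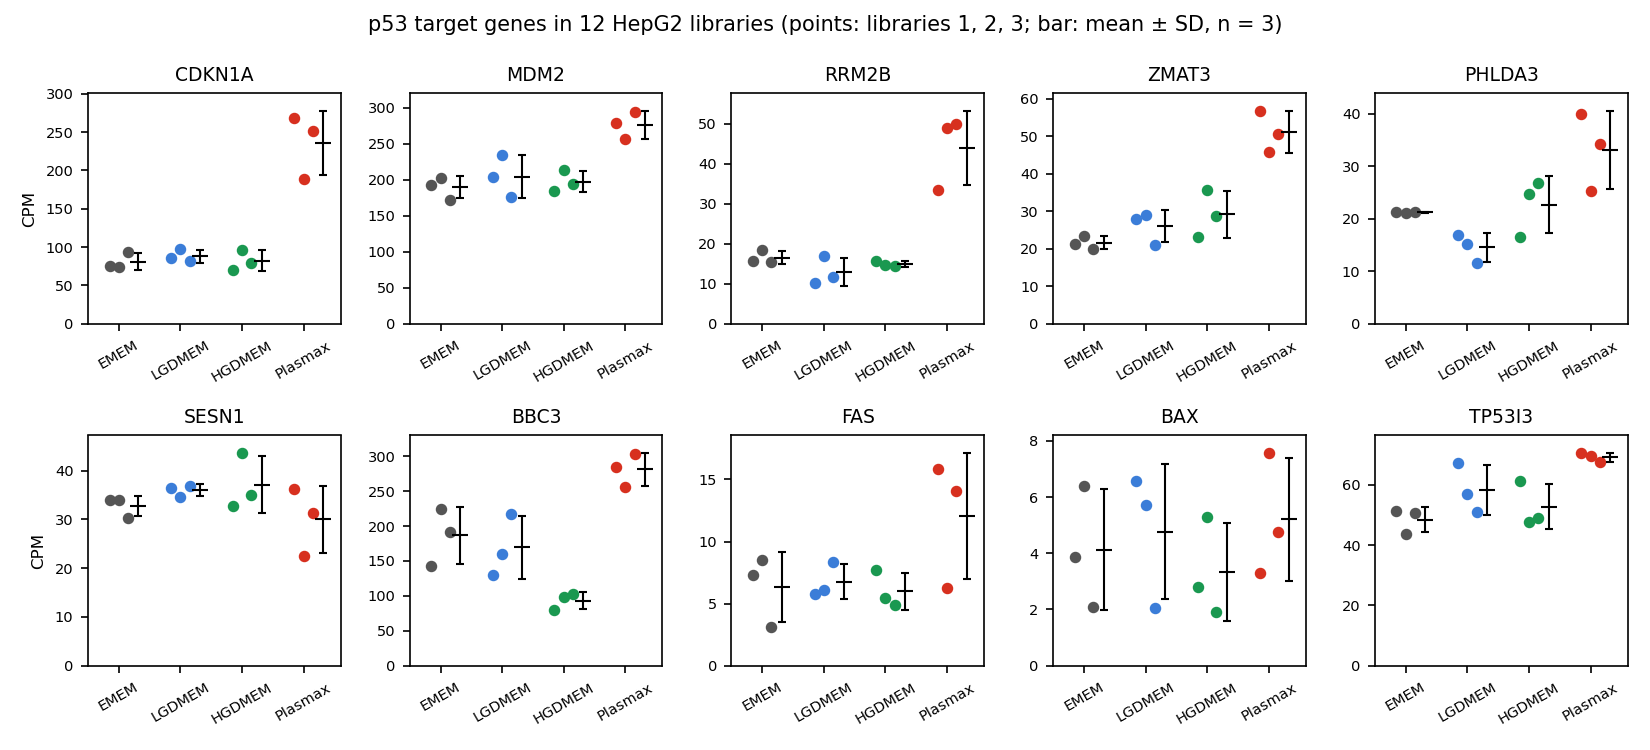
Each panel plots 1 member, with the 4 media on the x axis and CPM (scaled counts) on the y axis. Points are the 3 libraries of a medium, and the black bar beside them is their mean ± SD. In CDKN1A the Plasmax points at 188 to 268 CPM stand above the other 9 at 70.5 to 97.1 CPM, while in SESN1 and BAX the media overlap.

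CDKN1A encodes p21, the cyclin-dependent kinase inhibitor through which p53 stops the cell cycle. Its level was 268, 188 and 252 CPM in the Plasmax libraries, and 75.7, 73.7 and 93.6 in EMEM. LGDMEM gave 85.1, 97.1 and 81.3 CPM, and HGDMEM 70.5, 96.7 and 79.7 CPM. The 9 libraries outside Plasmax overlapped one another, and the lowest Plasmax library was still well above the highest of them. The log2 fold change of Plasmax was 1.54 ± 0.16 (SE) against EMEM, a 2.91-fold level, with 2.68-fold against LGDMEM and 2.86-fold against HGDMEM. Among the other media the order of means was LGDMEM, HGDMEM, EMEM, and neighbours in it did not differ beyond their spread. The interval of HGDMEM against EMEM was -0.31 to 0.36 on the log2 scale.

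MDM2, which ubiquitinates p53 and is itself raised by it, had 279, 256 and 294 CPM in Plasmax. EMEM gave 193, 202 and 172 CPM, LGDMEM 203, 234 and 175, and HGDMEM 185, 213 and 194. All 3 Plasmax values lay above the 9 others, although the gap from 234 to 256 CPM was small. The difference in Plasmax was smaller than for CDKN1A, at a log2 fold change of 0.55 ± 0.13 (SE) against EMEM, or 1.46-fold, with 1.35-fold against LGDMEM and 1.40-fold against HGDMEM. The 95% interval against EMEM was 0.28 to 0.82, and that of CDKN1A 1.20 to 1.88. LGDMEM and HGDMEM stood within -0.16 to 0.38 and -0.21 to 0.33 of EMEM by their intervals.

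RRM2B encodes the p53-inducible small subunit of ribonucleotide reductase, which supplies deoxynucleotides for DNA repair outside S phase. It was at 33.4, 48.9 and 49.8 CPM in Plasmax and at 15.8, 18.3 and 15.4 CPM in EMEM. HGDMEM gave 15.8, 14.6 and 14.4 CPM, and LGDMEM 10.1, 16.9 and 11.8. Plasmax stood apart, with log2 fold changes of 1.41 ± 0.23 (SE) against EMEM, 1.76 against LGDMEM and 1.56 against HGDMEM. LGDMEM had the lowest mean, 12.9 ± 3.55 CPM (SD, n = 3), but the interval of its difference from EMEM, -0.85 to 0.16, included no change.

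RRM2, its S-phase counterpart and not a p53-induced gene, was lower in the medium where RRM2B was high. RRM2 was at 91.2, 83.6 and 71.7 CPM in Plasmax and at 316, 235 and 248 CPM in EMEM, with no overlap. The log2 fold change of Plasmax was -1.69 ± 0.22 (SE) against EMEM (adjusted p = 2.5e-05), -1.48 against LGDMEM (adjusted p = 9.63e-05) and -1.80 against HGDMEM (adjusted p = 9.22e-06). The gene pair that makes the small subunit therefore moved in opposite directions between EMEM and Plasmax.

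ZMAT3 encodes an RNA-binding zinc finger protein that acts on splicing and transcript stability downstream of p53. Plasmax gave 56.8, 45.7 and 50.6 CPM, and EMEM 21.4, 23.5 and 19.98. LGDMEM gave 28.0, 29.1 and 21.1 CPM, and HGDMEM 23.1, 35.6 and 28.8. The log2 fold change of Plasmax was 1.24 ± 0.20 (SE) against EMEM, 0.97 against LGDMEM and 0.81 against HGDMEM. The smaller difference from HGDMEM went with a higher HGDMEM mean of 29.1 ± 6.27 CPM (SD, n = 3). HGDMEM against EMEM had a log2 fold change of 0.43 and did not pass the test (adjusted p = 0.651).

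PHLDA3, a pleckstrin homology protein that blocks AKT at the membrane, was at 40.0, 25.2 and 34.3 CPM in Plasmax. EMEM gave 21.4, 21.2 and 21.2 CPM and HGDMEM 16.5, 24.7 and 26.9, so that the Plasmax library at 25.2 fell inside the HGDMEM range. LGDMEM had the lowest mean, with 16.9, 15.1 and 11.5 CPM, and overlapped HGDMEM. The size of the Plasmax difference depended on the medium it was set against, with log2 fold changes of 1.19 against LGDMEM and 0.64 and 0.55 against EMEM and HGDMEM. LGDMEM lay below EMEM without overlap, as did 6.3% of all genes, and the log2 fold change of -0.55 did not pass the test (adjusted p = 0.590).

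SESN1 encodes sestrin 1, which lowers mTORC1 activity and takes part in the antioxidant response. It was the 1 member with a lower mean in Plasmax than in all other media, 30.01 ± 6.93 CPM (SD, n = 3). The Plasmax libraries were at 36.3, 22.6 and 31.2 CPM, and EMEM at 34.0, 34.0 and 30.3. LGDMEM gave 36.3, 34.6 and 36.9 CPM, and HGDMEM 32.8, 43.7 and 34.9. The Plasmax range enclosed that of EMEM, and the interval against EMEM ran from -0.54 to 0.28 on the log2 scale. LGDMEM lay above EMEM without overlap, as did 5.66% of all genes, by a log2 difference of 0.13.

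SESN2, a paralogue of SESN1 that is also induced by amino acid shortage and endoplasmic reticulum stress, varied more. It was at 77.0, 62.4 and 65.5 CPM in Plasmax, 18.7, 28.7 and 21.7 in EMEM, and 15.6, 26.5 and 24.5 in HGDMEM. LGDMEM split into 1 library at 27.5 CPM and others at 72.5 and 59.5, of which the first lay inside the Plasmax range and the second just below it. SESN2 rose in Plasmax against EMEM by a log2 fold change of 1.56 ± 0.28 (SE; adjusted p = 0.000693) and against HGDMEM by 1.62 (adjusted p = 0.000348), while the difference from LGDMEM did not pass (0.35, adjusted p = 0.386). LGDMEM against EMEM had a log2 fold change of 1.21 (adjusted p = 0.115), which passed without LGDMEM library 1 (1.51, adjusted p = 0.00307). With all libraries it passed in DESeq2 (1.21, adjusted p = 0.0110). SESN3 was not in the table.

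**Figure D2:**
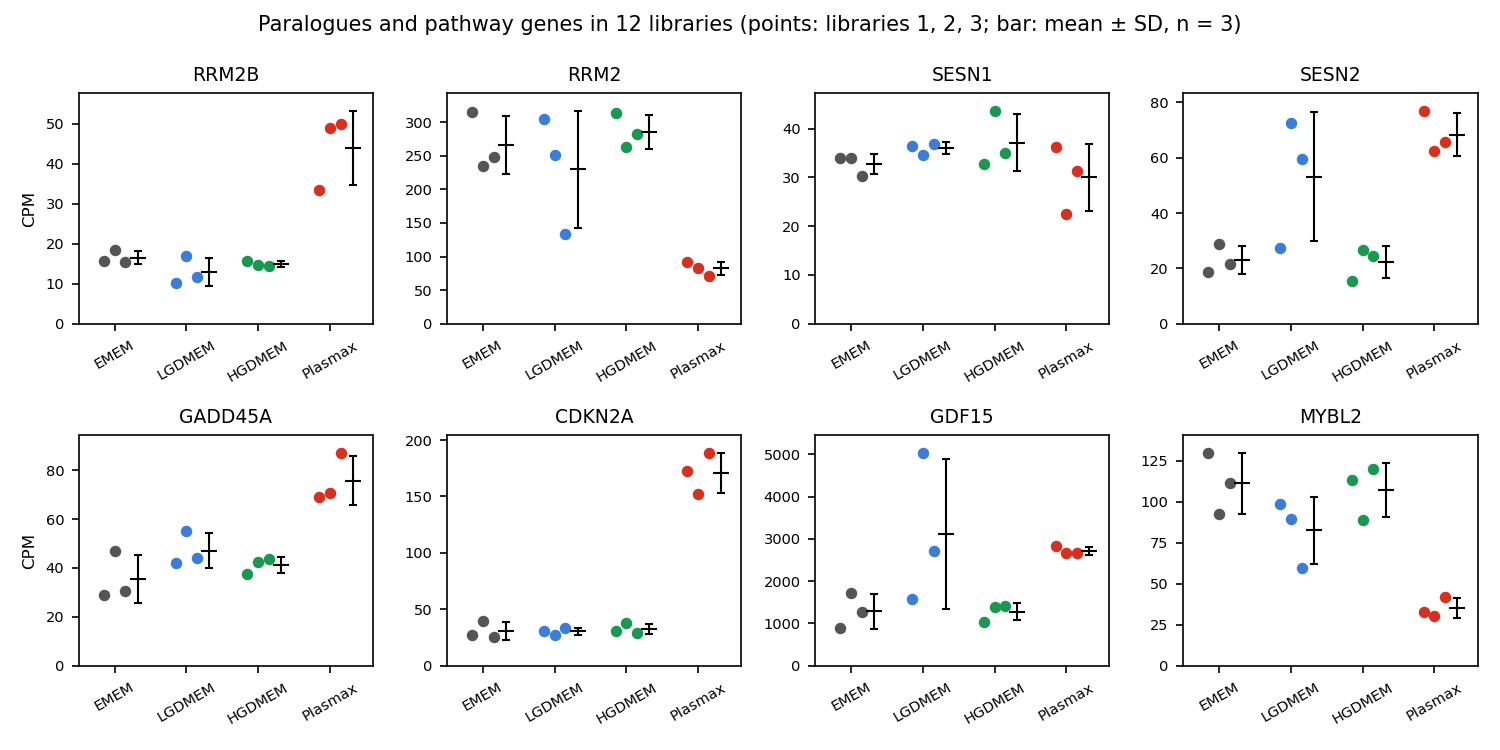
Panels plot RRM2B and RRM2, SESN1 and SESN2, GADD45A, CDKN2A, GDF15 and MYBL2, with the 4 media on the x axis and CPM (scaled counts) on the y axis. Points are libraries, 3 per medium, with a black bar for mean ± SD. RRM2 lies at 71.7 to 91.2 CPM in Plasmax, where RRM2B is highest, and the LGDMEM points of SESN2 and GDF15 are widely spread.

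BBC3 encodes PUMA, a BH3-only protein that triggers mitochondrial apoptosis. It was at 285, 256 and 303 CPM in Plasmax, 143, 225 and 192 in EMEM, and 130.0, 160.4 and 218 in LGDMEM. HGDMEM gave 79.1, 98.0 and 103 CPM, below every other library. Plasmax against EMEM had a log2 fold change of 0.59 ± 0.18 (SE), against LGDMEM 0.73 and against HGDMEM 1.59. The order of its means was Plasmax, EMEM, LGDMEM, HGDMEM, and the EMEM and LGDMEM libraries overlapped. No other member had this order, but RRM2B, ZMAT3, PHLDA3 and SESN1 also each had an order shared with no other member.

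FAS, the death receptor at the cell surface, was close to the lower limit of the table, with 15 to 77 reads per library. It was at 15.9, 6.26 and 14.1 CPM in Plasmax and at 7.28, 8.54 and 3.16 CPM in EMEM. LGDMEM gave 5.81, 6.09 and 8.38 CPM, and HGDMEM 7.69, 5.46 and 4.86. Plasmax libraries 1 and 3 were above all others, while library 2 was inside their range. The log2 fold change against EMEM was 0.92 ± 0.42 (SE), with an interval from 0.04 to 1.80.

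BAX, which permeabilises the outer mitochondrial membrane, had 9 to 40 reads per library. Its Plasmax libraries were at 3.30, 7.58 and 4.75 CPM and its EMEM libraries at 3.88, 6.41 and 2.10. LGDMEM gave 6.56, 5.70 and 2.04 CPM, and HGDMEM 2.81, 5.30 and 1.90. All media overlapped, and the interval of Plasmax against EMEM, -0.88 to 1.53 on the log2 scale, was too wide at this depth to place BAX with or apart from the other members.

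TP53I3, a quinone oxidoreductase induced by p53 ahead of apoptosis, was at 70.4, 69.8 and 67.6 CPM in Plasmax. EMEM gave 51.2, 43.6 and 50.7 CPM, LGDMEM 67.4, 57.0 and 50.9, and HGDMEM 61.3, 47.8 and 49.1. The Plasmax libraries lay above all others, but by only 67.6 against 67.4 CPM at the nearest point. The log2 fold change was 0.52 ± 0.16 (SE) against EMEM, and the interval against LGDMEM, -0.08 to 0.57, included no change.

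**Figure D3:**
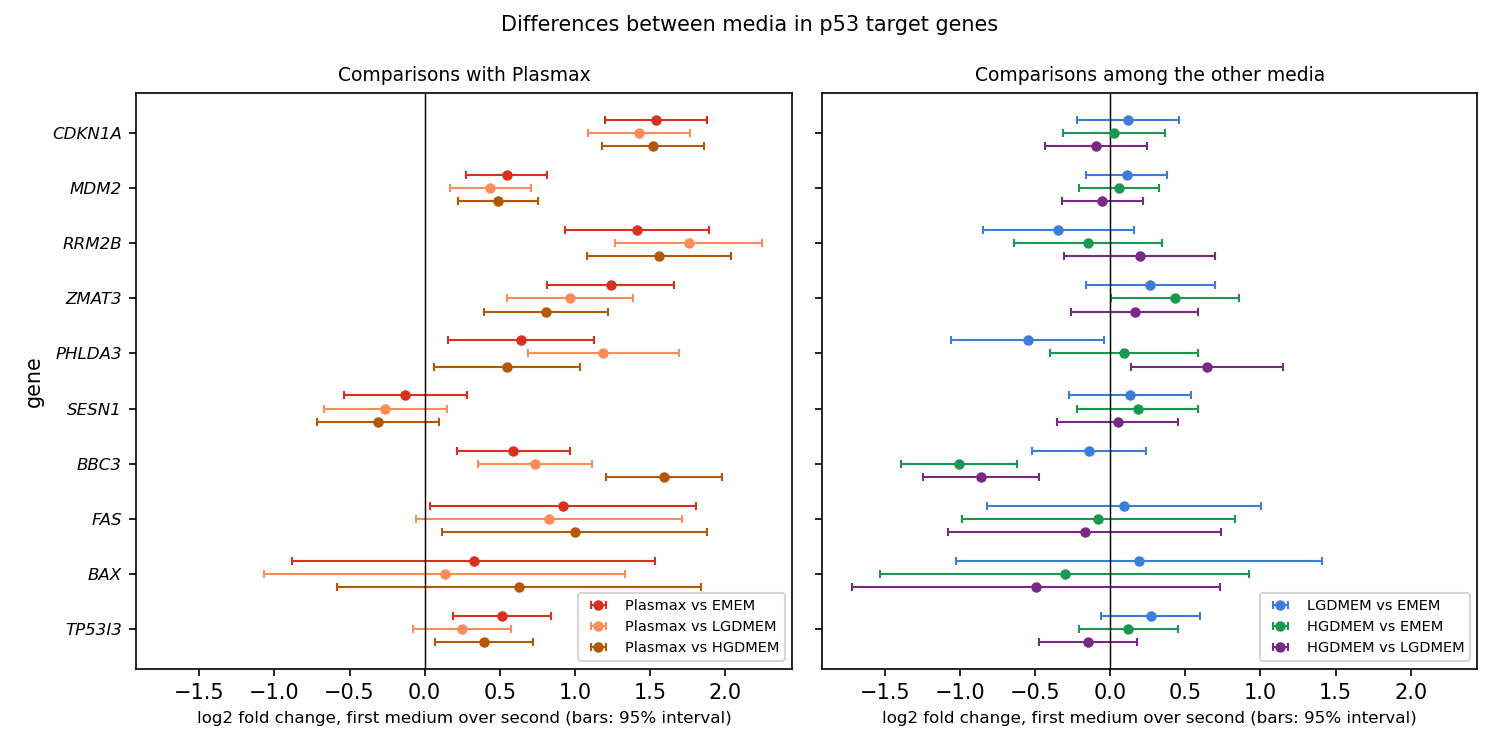
The x axis gives the log2 fold change and the y axis the 10 members, with the comparisons with Plasmax on the left, those among the other media on the right, and 1 colour for each. Points are edgeR estimates and bars their 95% intervals. In Plasmax against EMEM, CDKN1A, RRM2B and ZMAT3 lie furthest to the right at 1.54, 1.41 and 1.24, and between the other media the BBC3 points against HGDMEM stand away from 0.

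The 3 comparisons among EMEM, LGDMEM and HGDMEM asked whether the members also differ between the conventional media. The members were chosen with the counts of these libraries in view. Their p-values here, and that of BBC3 below, are therefore not those of genes picked independently of the data. LGDMEM against EMEM called 0 of 10 members in edgeR's test, with 1 at an unadjusted p under 0.05 (PHLDA3) and 0 called by DESeq2 or limma voom. There, 0.0731% of all 10945 genes were called, and 866 had an unadjusted p under 0.05. HGDMEM against LGDMEM also called 0 of 10 in edgeR, beside 0.064% of all genes. There, 2 members had an unadjusted p under 0.05, beside 860 of all genes. DESeq2 called 1 member (BBC3) and limma voom 0.

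HGDMEM against EMEM called 1 member lower, BBC3, and 0 higher, beside 0.164% of all genes. BBC3 fell to 93.3 ± 12.5 CPM (SD, n = 3) in HGDMEM from 187 ± 41.0 in EMEM, a log2 fold change of -1.003 ± 0.18 (SE; adjusted p = 0.0293). All its HGDMEM libraries lay below those of EMEM, as in 7.93% of all genes tested. The call was lost when any one of 5 libraries was left out. These were EMEM 2 (adjusted p = 0.183), EMEM 3 (0.139), HGDMEM 1 (0.171), HGDMEM 2 (0.122) and HGDMEM 3 (0.104). Over 22 alternatives the BBC3 log2 fold change stayed between -1.16 and -0.84. Not all of these could move it. The low-count filter removed 0 genes, the threshold of 0.01 used the same fit, and leaving out LGDMEM or Plasmax libraries kept both groups compared whole. HGDMEM also lay below LGDMEM without overlap, as did 6.07% of all genes, by a log2 fold change of -0.86 ± 0.18 (SE) that did not pass (adjusted p = 0.119). It passed without LGDMEM library 1 (-1.02, adjusted p = 0.00680), with the replicate number as a block (-0.85, adjusted p = 0.0325) and in DESeq2 (adjusted p = 0.00412). Under every other alternative it did not pass. The adjusted p was 0.148 in limma voom and 0.457 in the fit of only those 2 media. Without LGDMEM library 3 the log2 fold change was -0.64 (adjusted p = 0.395).

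Of 27 measured genes for regulators of p53, 3 rose and 3 fell in Plasmax against EMEM, and their median log2 difference was 0.16. Shares this size are near those of all genes, 10% called higher and 12.1% lower. The largest rise was in CDKN2A, which encodes p16, an inhibitor of CDK4 and CDK6, and p14ARF, an inhibitor of MDM2; tags near the shared 3′ end cannot tell these apart. CDKN2A was at 172, 152 and 188 CPM in Plasmax against 27.4, 40.0 and 25.5 CPM in EMEM, a 5.49-fold level and a log2 change of 2.46 ± 0.18 (SE; adjusted p = 7.23e-08). LGDMEM (30.5, 26.9 and 33.5 CPM) and HGDMEM (30.8, 37.6 and 28.98 CPM) overlapped EMEM.

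HIPK2, a kinase that phosphorylates p53, rose from 122 ± 6.84 to 172 ± 10.1 CPM (SD, n = 3; adjusted p = 0.00753). CUL9, which retains p53 in the cytoplasm and is named here after its values were seen, was the other riser, from a mean of only 2.01 CPM. The checkpoint kinase genes CHEK1 (log2 fold change -1.38, adjusted p = 0.000376) and CHEK2 (-1.14, adjusted p = 0.0183) fell, as did NPM1 (-0.42, adjusted p = 0.0311). The count of 3 fallers depended on single libraries, being 1 without EMEM 1 or without Plasmax 1. NPM1 also lost its call without Plasmax 2 (adjusted p = 0.0675) or Plasmax 3 (0.0948), and CHEK2 without EMEM 3 (0.0732). The inhibitor genes next to MDM2 in the loop did not pass, with MDM4 at a log2 fold change of 0.79 ± 0.31 (SE; adjusted p = 0.0804) and the phosphatase gene PPM1D at -0.45 ± 0.23 (SE; adjusted p = 0.169). MDM4 passed without EMEM library 1 (1.06, adjusted p = 0.0464). Against LGDMEM 2 regulators rose and 2 fell, where 9.48% of all genes were called higher and 11.7% lower. Against HGDMEM 6 of the 27 rose and 2 fell, where 12.8% of all genes were called higher and 14.1% lower. Without HGDMEM 3 or without Plasmax 1 the counts against HGDMEM were 3 and 1. Against LGDMEM the lower count was 0 without LGDMEM 1 and 1 without HGDMEM 1, Plasmax 1 or Plasmax 3.

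A wider list of p53 targets, without the 10 members, had 89 measured genes of 104. In Plasmax against EMEM 22 of the 89 rose and 8 fell, and 59 did not pass, and the median log2 difference of the list was 0.25. Of all genes, 10% were called higher and 12.1% lower. Against LGDMEM 17 rose and 6 fell (median 0.23), beside 9.48% and 11.7% of all genes. Against HGDMEM 24 rose and 10 fell (median 0.19), beside 12.8% and 14.1% of all genes. The list was not uniform, since more of its genes did not pass than passed in each comparison. The count of 8 fallers against EMEM dropped to 5 without EMEM 2 or EMEM 3 and to 4 without Plasmax 2.

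By role, 3 of 14 cell cycle and feedback genes and 4 of 16 apoptosis genes rose against EMEM, and 0 fell in either group. GADD45A, a stress sensor that binds PCNA and p21, rose from 35.5 ± 9.84 to 75.6 ± 10.1 CPM (SD, n = 3), by 1.09 ± 0.19 (SE) on the log2 scale (adjusted p = 0.000555). Its Plasmax libraries were at 69.0, 70.7 and 87.2 CPM, above the EMEM libraries at 29.1, 46.8 and 30.5. TNFRSF10D, a decoy receptor for the death ligand TRAIL, rose from 22.3 ± 1.77 to 59.9 ± 6.93 CPM, by 1.43 ± 0.31 (SE) on the log2 scale (adjusted p = 0.00272). The other apoptosis genes that rose, named after their values were seen, were PERP (log2 fold change 1.12), TP53INP1 (1.165) and IER5 (1.04). CCNG1, cyclin G1, which recruits a phosphatase to MDM2, went the other way without passing (-0.42 ± 0.15 SE, adjusted p = 0.0511), and passed under 8 of the alternatives, as without Plasmax library 1 (-0.57, adjusted p = 0.0182).

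Of 6 DNA repair genes, 1 rose and 1 fell. The faller was PCNA, the sliding clamp of DNA replication, from 285 ± 71.0 to 127 ± 4.46 CPM, a log2 change of -1.17 ± 0.24 (SE; adjusted p = 0.0018). Metabolism and stress genes split into 6 risers and 4 fallers of 21, and the remaining group of 32, on adhesion, signalling and other roles, into 8 risers and 3 fallers. The largest rise on the list was in TXNIP, an arrestin-like protein that follows glucose supply and restrains thioredoxin, with 282, 282 and 330.3 CPM in Plasmax against 57.0, 20.3 and 34.1 in EMEM, a log2 change of 3.02 ± 0.31 (SE; adjusted p = 1.91e-06). TXNIP was at 1.01, 5.50 and 4.53 CPM in LGDMEM and 43.9, 30.1 and 51.2 in HGDMEM. It was the 1 gene of the wider list called between the other media, lower in LGDMEM than in EMEM (adjusted p = 0.00126) and higher in HGDMEM than in LGDMEM (adjusted p = 0.000570). Neither call held in limma voom (adjusted p = 0.107 and 0.116), nor the first in a fit of only those media (0.0601). Without LGDMEM 1, wider-list genes called higher and lower in LGDMEM against EMEM numbered 3 and 2, and in HGDMEM against LGDMEM 2 and 3.

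GDF15, a secreted stress hormone that p53 and the integrated stress response both induce, was at 2820, 2664 and 2655 CPM in Plasmax and at 880.4, 1709 and 1273 in EMEM. It rose against EMEM by a log2 fold change of 1.07 ± 0.28 (SE; adjusted p = 0.0107), a call lost without EMEM library 1 (0.86, adjusted p = 0.0655). LGDMEM was spread over 1572, 5042 and 2720 CPM and enclosed the Plasmax range. LGDMEM against EMEM did not pass (adjusted p = 0.112), and did without LGDMEM library 1 (1.59, adjusted p = 0.00181). It also passed with the replicate number as a block (1.21, adjusted p = 0.0281).

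**Figure D4:**
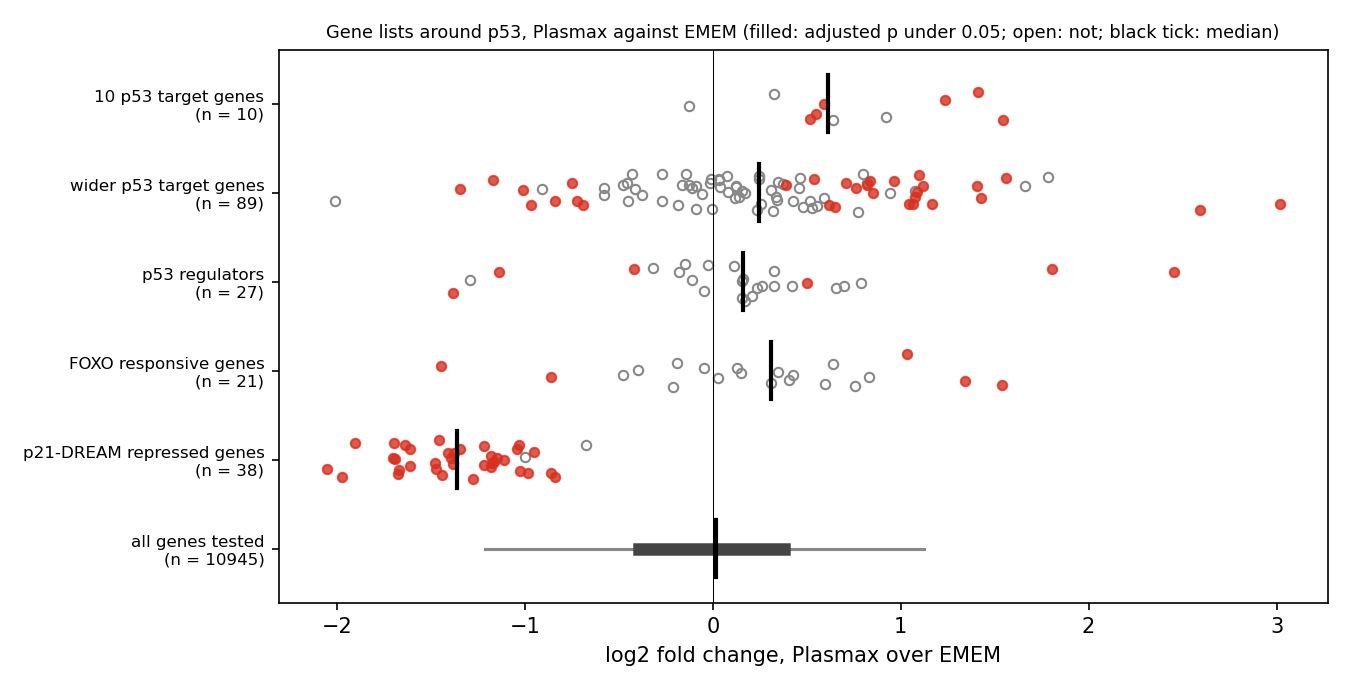
The x axis gives the log2 fold change of Plasmax against EMEM and the y axis the gene lists, with 1 point per measured gene (filled where called, open where not) and a black tick at each median. For all genes tested, the thick bar spans the quartiles and the thin bar the range from percentile 5 to percentile 95. The DREAM list lies wholly below 0 with a median of -1.36, while the wider p53 list, with a median of 0.25, reaches from -2.01 to 3.02.

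Genes that the p21-DREAM axis is known to repress fell almost throughout. Of 38 genes, all of them measured, 36 fell and 0 rose in Plasmax against EMEM (median log2 difference -1.36). Against LGDMEM 32 fell (median -1.10) and against HGDMEM 34 fell (median -1.36), with 0 risers in both. Of all genes, 12.1% were called lower against EMEM, 11.7% against LGDMEM and 14.1% against HGDMEM. This list, like the others here, was chosen with earlier results of these data known. Its p-values are therefore not those of genes picked independently of the data. MCM2, a subunit of the replicative helicase, fell from 257 ± 18.0 to 61.8 ± 15.4 CPM, a log2 change of -2.06 ± 0.22 (SE; adjusted p = 3.92e-06). UBE2C (-1.97, adjusted p = 2.05e-07) and CDC20 (-1.90, adjusted p = 0.000126), which act with the anaphase-promoting complex in mitosis, fell as far. MYBL2, a transcription factor of the cell cycle, fell from 111 ± 18.7 to 35.0 ± 6.11 CPM (adjusted p = 1.06e-05). Genes of this list follow the share of dividing cells by any route, and whether p21 had a part in their fall was not tested. Between the other media 0 of the 38 were called by edgeR, DESeq2 or limma voom. At an unadjusted p under 0.05 edgeR had 9 in LGDMEM against EMEM, beside 866 of all 10945 genes. It had 1 in HGDMEM against EMEM, beside 830, and 5 in HGDMEM against LGDMEM, beside 860. Most of the list still leaned 1 way in LGDMEM. There, 35 were lower than in EMEM (median log2 difference -0.23), and 35 were higher in HGDMEM than in LGDMEM (median 0.24). In HGDMEM against EMEM 18 were higher and 20 lower. Among the LGDMEM libraries, MCM2, RRM2, CDC20, MYBL2 and UBE2C were all lowest in library 3. Libraries 1, 2 and 3 had 263, 248 and 146 CPM in MCM2 and 304, 252 and 133 CPM in RRM2. In UBE2C they were closer, at 87.1, 78.2 and 72.9 CPM. The lean is thus not shown to be shared by every LGDMEM library. Without LGDMEM 1, 1 gene was called lower in LGDMEM than in EMEM and 2 higher in HGDMEM than in LGDMEM.

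FOXO factors share CDKN1A and other targets with p53, and their responsive genes were counted in the same way. Of 21 measured genes, 3 rose and 2 fell in Plasmax against EMEM (median log2 difference 0.31), again near the shares of all genes. PPARGC1A, a coactivator of mitochondrial and gluconeogenic genes, rose from 11.7 ± 3.61 to 33.6 ± 0.63 CPM, a log2 change of 1.54 ± 0.26 (SE; adjusted p = 0.000408). TRIB1 (1.34, adjusted p = 0.000243) and the autophagy gene GABARAPL1 (1.03, adjusted p = 0.0176) rose too, the latter not without EMEM 1 (adjusted p = 0.0796) or Plasmax 1 (adjusted p = 0.0533). Catalase, CAT, fell (-0.86, adjusted p = 0.00185), and so did KLF15, named here after its values were seen (-1.45, adjusted p = 0.0135). Without Plasmax 1, 1 FOXO gene was called lower. Against LGDMEM 5 of the 21 rose and 3 fell, where 9.48% of all genes were called higher and 11.7% lower. Against HGDMEM 7 of the 21 rose (4 without HGDMEM 1) and 3 fell, where 12.8% of all genes were called higher and 14.1% lower. The nearness to the shares of all genes was thus stated for EMEM only.

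The wider targets were also divided by whether their promoter held a match to the response element. Of 89 wider targets, 78 had a promoter entry, and 16 of these (20.5%) held a match. Against EMEM 3 of the 16 rose in Plasmax, DGKA (log2 fold change 1.06), FDXR (0.85) and GDF15 (1.07), and 2 fell, PANK1 (-0.84) and SAC3D1 (-1.01), with a median of 0.13. Of the 62 without a match, 13 rose and 6 fell, with a median of 0.20. The 11 without a promoter entry could not be placed, and of these 6 rose and 0 fell, with a median of 0.71. Of all genes, 10% were called higher and 12.1% lower. Against LGDMEM 2 of the 16 rose and 1 fell, beside 9.48% and 11.7% of all genes. Of the 62, 11 rose and 5 fell, and of the 11, 4 and 0. Against HGDMEM 3 of the 16 rose and 3 fell, beside 12.8% and 14.1% of all genes. Of the 62, 15 rose and 7 fell, and of the 11, 6 and 0. DGKA, FDXR and PANK1 are named here after their values were seen. Among the members with a match printed above, MDM2 was higher in Plasmax in all 3 libraries, FAS in 2 of 3, and SESN1 was not. CDKN1A, with the largest difference from EMEM, had none in the window.

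The 5 genes whose profile over the 12 libraries was most like that of CDKN1A were CPT1A, IL13RA1, RGMB, TMEM106B and FGL1. Likeness was the root mean square difference of centred log2 CPM among the 7842 genes averaging 10 CPM or more, and the 5 values ran from 0.19 to 0.24. CPT1A, the mitochondrial fatty acid importer, was at 187, 133 and 160.0 CPM in Plasmax and at 48.5, 49.3 and 50.3 in EMEM, so that library 2 was lowest of the Plasmax libraries as in CDKN1A. The nearest member, ZMAT3, ranked 31 (0.29), followed by RRM2B at 79 (0.35), PHLDA3 at 487, MDM2 at 521, BBC3 at 776, TP53I3 at 1099 and SESN1 at 4671. FAS and BAX were below 10 CPM and were not ranked. The measure weighs the size of a difference as well as its pattern, so members with smaller differences rank lower.

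Some facts of the whole series moved with Plasmax and others did not. Libraries held 3995365 to 5840057 counts, and those of Plasmax, at 4744080 to 5290642, lay inside the range of the others. The first principal component (37.1% of the variance) placed the Plasmax libraries at 52.9 to 59.4 and the others at -29.0 to -3.47. The second (9.95%) set LGDMEM library 3 apart, at -51.8, from all other libraries at -11.0 to 14.7. Mitochondrially encoded transcripts made up 12.3% to 14.1% of counts in Plasmax and 9.80% to 12.3% elsewhere. All 10 hepatocyte markers were detected, and their summed level was 12280 to 13865 CPM in Plasmax against 21371 to 26740 CPM in the others. Against EMEM 6 of the 10 fell, 1 rose (SERPINA1, log2 fold change 0.57) and 3 did not pass. ALB fell from 8453 ± 261 CPM in EMEM to 4259 ± 338 in Plasmax, a log2 change of -0.99 ± 0.10 (SE; adjusted p = 1.35e-06). Stromal markers, 3 of 4 with COL3A1 absent, summed to 69.4 to 94.9 CPM in Plasmax and 34.2 to 65.4 in the others; against EMEM, ACTA2 was called higher (log2 fold change 0.81) and PDGFRB lower (-1.59). Leukocyte markers, 4 of 7 with the defining PTPRC and CD3E among those absent from the table, summed to 2163 to 2376 CPM in Plasmax and 2216 to 3485 elsewhere. None of 4 endothelial markers had a row. The part of these shifts in the levels of the p53 targets was not tested.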

How the data were processed

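The deposited table held the counts of 11546 rows, 1 per gene, in 12 libraries, as raw whole numbers. The submitters' processing notes name hg19/GRCh37, limma 3.40.6, featureCounts 1.6.3, STAR 2.7.5b, cutadapt 1.16 and FastQC 0.72, without role or order, and whether counting used strand is not given in the sources used here. Rows without a symbol (601, holding 2.92% to 3.71% of counts) entered neither library sizes nor tests. Each row reached 2.51 CPM in at least 3 libraries, so a filter on low counts preceded deposit. 0 columns belonged to other samples.

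From the counts, edgeR 4.0.16 in R 4.3.3 fitted all 12 libraries with TMM scaling and no block (biological coefficient of variation 0.215), and the quasi-likelihood test was adjusted by Benjamini-Hochberg over 10945 genes at 0.05. SE was taken as the ratio of the log2 fold change to the root of its F statistic, and intervals are at 95%. CPM use TMM-scaled library sizes. DESeq2 1.42.0 and limma 3.58.1 (voom) served as alternatives. The fit was tested on simulated data. No libraries of a medium were identical.

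The members and lists were chosen with earlier results of these data known. Named genes were the members, 12 fixed pathway genes (not all reported here), up to 3 largest rises and falls per list against EMEM (called, at least 10 CPM, no overlap) and the 5 nearest to CDKN1A. Promoters are of GRCh38.p14, which is not the authors' build, and serve for sequence only. Proteins were not analysed here.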

Additional observations from a re-analysis of the deposited data

How the results depend on the processing

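Under 20 to 22 alternatives to each result, no called value changed sign. Some alternatives could not change one. The low-count filter removed 0 genes, and the threshold of 0.01 used the same fit. Leaving out a library of a medium outside the comparison could hardly do so either. In the comparisons with Plasmax, none of the members' log2 fold changes moved by more than the replicate SD. Leaving out 1 of 3 libraries can hardly move a value that far, so those fits do not check it. Among the other media this measure was not used. The members called higher in Plasmax ranged from 4 to 7 against EMEM, with 4 at an adjusted p of 0.01 and without Plasmax 1. At 0.01 the other counts were 4 wider targets lower against EMEM, 15 higher and 6 lower against HGDMEM, 1 regulator lower against EMEM, 0 lower against LGDMEM, and 3 higher and 1 lower against HGDMEM, 1 FOXO gene lower against EMEM and 4 higher against HGDMEM, and 0 members lower in HGDMEM against EMEM. Upper-quartile scaling and the fit of only the 2 media gave 1 regulator lower against LGDMEM. DESeq2 gave 1 wider target higher in LGDMEM against EMEM, 1 FOXO gene lower in HGDMEM against EMEM, and 1 member and 1 wider target lower in HGDMEM against LGDMEM. TXNIP was not called by limma voom, which gave 0 wider targets lower in LGDMEM against EMEM and 0 higher in HGDMEM against LGDMEM, nor in the fit of only LGDMEM and EMEM (0).

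Leaving out 1 library at a time, counts ranged as follows: wider targets 4 to 9 lower against EMEM in Plasmax, 0 to 3 higher and 1 to 2 lower in LGDMEM against EMEM, and 1 to 2 higher and 0 to 3 lower in HGDMEM against LGDMEM; regulators 1 to 3 lower against EMEM, 0 to 3 against LGDMEM and, against HGDMEM, 3 to 6 higher and 1 to 3 lower. FOXO genes ranged from 1 to 2 lower against EMEM, 4 to 8 higher against HGDMEM and 0 to 2 lower in HGDMEM against LGDMEM. DREAM genes ranged from 0 to 1 lower in LGDMEM against EMEM and 0 to 2 higher in HGDMEM against LGDMEM. Members lower in HGDMEM ranged from 0 to 1 against both EMEM and LGDMEM. All genes called in Plasmax against EMEM numbered 2417, and 1693 without EMEM 1. In LGDMEM against EMEM 8 were called, and 87 without LGDMEM 1.

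Media share replicate numbers in the labels, with no stated meaning. With the number as a replicate block, 5 regulators rose in Plasmax against EMEM, 1 wider target was higher in LGDMEM against EMEM, and 1 member and 1 wider target were lower in HGDMEM against LGDMEM. Same-numbered libraries deviated together by correlations of 0.048 to 0.128 in HGDMEM against EMEM over all genes, and over all genes no comparison had all 3 above 0.1, so the numbers were not taken to pair the libraries. Among the 4366 genes with a mean log2 CPM above 5 all 3 were above 0.1 in HGDMEM against EMEM (0.11 to 0.186) and against LGDMEM (0.165 to 0.246), so that decision depends on the genes used. Every library correlated best with its own number in HGDMEM against EMEM and against LGDMEM, a hint from the data and not the design. The causes of these changes were not tested. FAS and BAX, with 9 to 77 reads per library, are limited by depth.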
